A study of Homo sapiens with 9 samples.

Results

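The 10 genes described here make, sense or break down prostaglandins: PTGS1, PTGS2, PTGES, PTGES2, PTGES3, AKR1B1, PTGER2, PTGER4, HPGD and PTGR1. They were picked by name from the 58735 genes in the table of counts, and all 10 were found. The choice was made with earlier results of these counts known, in which PTGES was among the largest decreases upon PT2385 treatment. PTGES is therefore given with no p-value, and it is left out when members past the test are counted. The calls for the other members are a description too. The RNAseq covered 9 libraries of 786-0, a human clear cell renal cell carcinoma line. The groups were untreated parental cells (786-0 WT), WT cells given 10 μM PT2385, a small molecule that keeps HIF2α from pairing with HIF1β, and a HIF2α knockout of the line (HIF2α KO), with 3 libraries each. All groups grew for 48 h at 21% oxygen in medium with 5 mM glucose and 10% serum. By the study's account 786-0 cells lack functional VHL, carry an inactivating mutation of HIF1α and express HIF2α constitutively. All 3 groups share the VHL and HIF1α defects. How the knockout was made, whether it is a single clone and whether WT cells received a vehicle are not given in the sources used here. Nothing in the labels says that replicates came from separate cultures, so p-values measure the spread between these libraries, which may be technical.

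Prostaglandins are lipid signals made from arachidonic acid, which phospholipases free from membranes. The cyclooxygenases turn it into prostaglandin H2, and terminal synthases turn that into prostaglandin E2 (PGE2), F2α and others. PGE2 acts on neighbouring cells through receptors such as EP2 and EP4, which raise cAMP, and is inactivated by oxidation and reduction. In the kidney PGE2 is known for its part in salt and water handling and in renal blood flow.

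The stretch upstream of PTGES and of AKR1B1 is shown because PTGES had the largest difference of any member and AKR1B1 was the most abundant member. Both come from RefSeq (GRCh38.p14) and are printed 5′ to 3′ on the strand of the gene, with capitals for the core letters of the hypoxia response element, ACGTG or GCGTG, read on either strand. The PTGES stretch lies at chr9:129753043-129753292 on the minus strand and ends at the base before the gene's start. Its capitals begin 82 bases upstream of the start. The AKR1B1 stretch lies at chr7:134459285-134459350, also on the minus strand, and covers only the 66 bases upstream of every annotated start of that gene. Its capitals are the core on the opposite strand, CACGC, and begin 213 and 74 bases upstream of the 2 RefSeq starts of AKR1B1.
PTGES: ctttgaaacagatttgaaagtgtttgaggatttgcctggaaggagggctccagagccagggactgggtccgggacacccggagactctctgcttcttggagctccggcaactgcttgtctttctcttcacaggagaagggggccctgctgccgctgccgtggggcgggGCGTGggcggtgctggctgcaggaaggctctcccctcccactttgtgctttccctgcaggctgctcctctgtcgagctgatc
AKR1B1: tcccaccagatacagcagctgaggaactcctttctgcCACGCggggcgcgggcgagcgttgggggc

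RefSeq windows of 250 bases upstream of a start were found for 10 of 10 members, 15 windows in all. A core was present in 10 of these windows, which belong to 8 members, and was absent from the windows of PTGR1 and PTGS2. Of all 35116 windows from RefSeq, 43.2% hold a core, so its letters are common. PTGES2 has 5 matches over its windows, of which CACGT and ACGTG overlap. A match of letters is a description and not a binding site.

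Total counts per library ran from 11881000 to 14730081. EPAS1, which encodes HIF2α, had 3226, 3210 and 2788 counts in WT, 3075, 3317 and 3132 with PT2385 and 262, 360 and 307 in KO, so the libraries labelled KO carried the lowest EPAS1 of the series. Renal epithelial and carcinoma markers were over the floor of 3 counts for 6 of 6 genes in each group, with a summed level of 5895 to 6594 CPM (counts scaled to a common library size) over the 9 libraries. Leukocyte and endothelial markers were at or near 0. The leukocyte list, which also holds the haemoglobin gene HBB, had a summed level of at most 1.24 CPM, nearly all of it from CD14. PTPRC had no more than 1 count, and HBB, CD3E, PECAM1 and VWF were at 0. The endothelial markers, CDH5 included, had a summed level of at most 0.167 CPM. Within the renal markers PAX2 was lower and KRT8 and KRT18 were higher in both PT2385-treated and KO cells than in WT. Against WT, CDH2 had log2 fold changes of opposite sign, -0.22 in KO and 0.18 with PT2385. The part of these differences in the results was not tested.

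A gene was tested if it passed a filter on low counts, and was called differentially expressed at an adjusted p under 0.05 (edgeR's quasi-likelihood test, Benjamini-Hochberg over all tested genes). PTGS2 did not pass this filter, so 9 of 10 members were tested in each comparison. PTGES passed it in both comparisons with KO only through the group where it is high. Upon PT2385 treatment no tested member other than PTGES was called by edgeR or by DESeq2, while 2 of them, PTGES2 and PTGER4, had an unadjusted p under 0.05 in edgeR. Of all 15089 tested genes, 3193 had an unadjusted p under 0.05, so that mark was common. The background of genes called at the adjusted p was 7.7% of 15089 genes, 3.08% higher and 4.62% lower. Samples with the same replicate number deviated together in this comparison. With the replicate number as a block 2305 of 15089 genes were called. Among them were PTGES2 (log2 fold change 0.22, adjusted p = 0.0224 in edgeR) and PTGER4 (log2 fold change 0.35, adjusted p = 0.0336 in edgeR).

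Between HIF2α KO and WT 4 members other than PTGES were called. PTGES2, AKR1B1 and PTGR1 were up-regulated, and PTGES3 was lower. The background was 30.1% of 15192 genes, 14.7% higher and 15.4% lower. Between KO and PT2385-treated cells 2 were called, AKR1B1 and PTGR1, both higher, against 18.8% of 15402 genes, 8.47% higher and 10.3% lower. The median log2 fold change of the 9 tested members was 0.04, 0.16 and 0.11 in these 3 comparisons, and over all tested genes it was 0.00, 0.00 and -0.00. The members were chosen with these columns in view, so nothing is read from these shares. PT2385 against WT and KO against WT share the WT libraries.

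**Figure D1:**
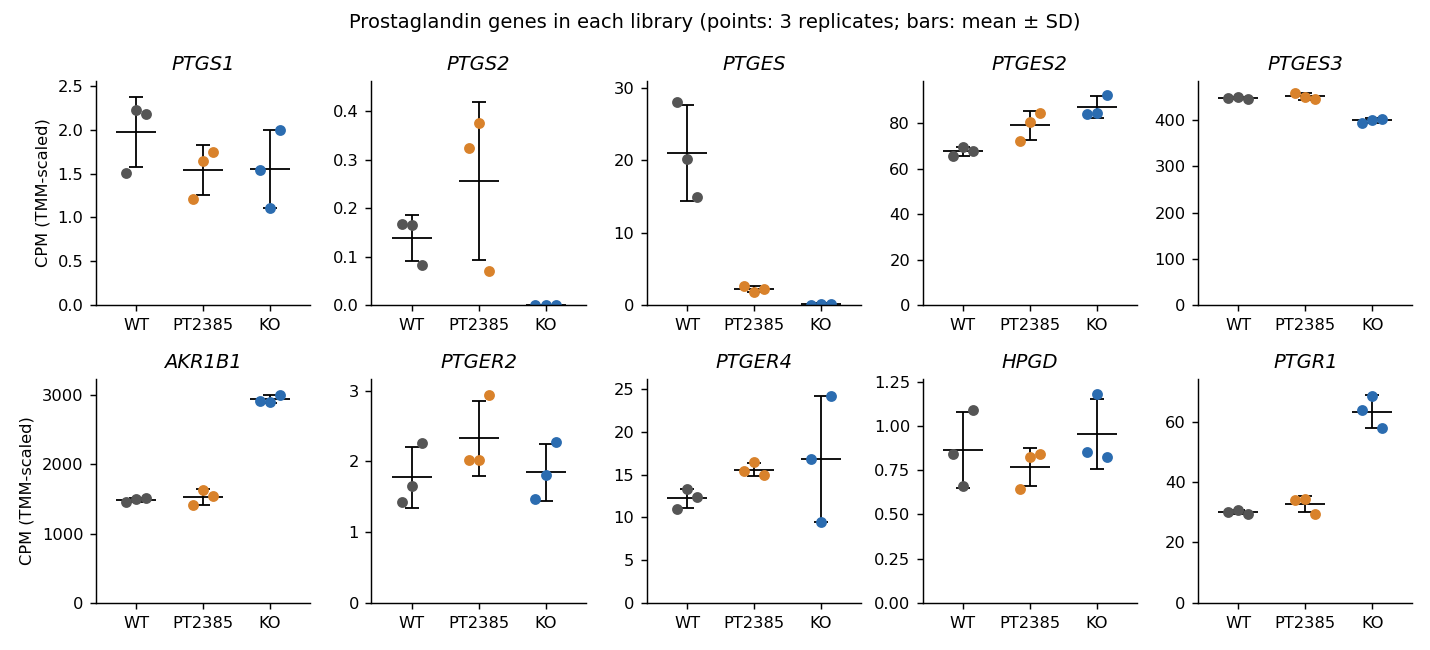
Expression of the 10 members in CPM (vertical axis, linear and from 0) in each of the 9 libraries, with points for the 3 replicates of WT (grey), PT2385 (orange) and KO (blue) and bars for mean ± SD. PTGES lies between 14.9 and 28.04 in WT, between 1.80 and 2.67 with PT2385 and at no more than 0.208 in KO, while AKR1B1 and PTGR1 are higher in the 3 KO libraries than in the other 6.

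The cyclooxygenases, which carry out the committed step, were both scarce. PTGS1 (COX-1, the constitutive form, ENSG00000095303, chromosome 9, 122370530 to 122395703 of GRCh38) had 18, 27 and 26 counts in WT, 15, 22 and 25 with PT2385 and 20, 16 and 29 in KO. The 3 groups overlapped, with mean levels of 1.97 ± 0.399, 1.54 ± 0.285 and 1.55 ± 0.442 CPM (SD, n = 3). The log2 fold change was -0.35 with PT2385 (95% interval -0.96 to 0.25, adjusted p = 0.512 in edgeR) and -0.33 in KO (-0.98 to 0.32, adjusted p = 0.442 in edgeR). Both intervals include 0, so neither the direction nor the size of a change is settled at this depth.

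PTGS2 (COX-2, the inducible form, ENSG00000073756, chromosome 1, 186671791 to 186680922) had 2, 2 and 1 counts in WT and 4, 5 and 1 with PT2385. All 3 KO libraries had 0 counts, and a count of 0 allows up to 3 counts in each. WT lay at or under the same floor, so no fold is given. PTGS2 shares 219 exonic bases with PACERR on the opposite strand, which had 0 to 3 counts. Transcript of the inducible cyclooxygenase was thus near the limit of detection in every group.

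PTGES (ENSG00000148344, chromosome 9, 129738331 to 129753042, minus strand) encodes the inducible microsomal PGE2 synthase, a membrane enzyme of the MAPEG family that uses glutathione. It had 334, 245 and 178 counts in WT, 33, 24 and 31 with PT2385 and 0, 3 and 3 in KO. Every PT2385 library was lower than every WT library, and every KO library was lower than every PT2385 library. The mean was 21.0 ± 6.61 CPM in WT, 2.21 ± 0.437 with PT2385 and 0.138 ± 0.120 in KO (SD, n = 3). In bulk RNA, fewer cells with a transcript and less transcript per cell cannot be told apart.

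With PT2385 the log2 fold change of PTGES was -3.26 (SE 0.251), which leaves 0.105 times the WT level. It lay between -3.45 and -2.99 when any single library was left out. In KO the 3 libraries held 6 counts of PTGES together, against 757 in WT and 88 with PT2385. Per effective library size the WT level was 147 times that of KO (95% exact interval 67.1 to 401), and the PT2385 level was 15.3 times that of KO (6.77 to 42.9). These intervals cover counting error only. They are a description and not a test, because PTGES was chosen with these counts known. The fitted log2 values of -7.09 and -3.86 for these comparisons depend on the prior count. No annotated gene shares exonic bases with PTGES. Its WT libraries were the least alike of any tested member, with a coefficient of variation of 31.4%.

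PTGES2 (ENSG00000148334, chromosome 9, 128120693 to 128128462) encodes a constitutive, membrane-associated PGE2 synthase. Its counts were 782, 845 and 811 in WT, 894, 1077 and 1205 with PT2385 and 1085, 1219 and 1345 in KO. All PT2385 and all KO libraries had more CPM than all WT libraries, while the PT2385 and KO libraries overlapped. The means were 67.7 ± 2.01, 79.1 ± 6.19 and 87.0 ± 4.80 CPM (SD, n = 3). PTGES2 was up-regulated in KO against WT by 0.38 on the log2 scale (SE 0.0660, adjusted p = 0.00137 in edgeR). With PT2385 the log2 fold change was 0.22 (SE 0.0731) and the adjusted p in edgeR was 0.0993. Without PT2385 replicate 1, the lowest of its group, it was 0.28 with an adjusted p of 0.0267 in edgeR. In the other fits that left out a library the adjusted p in edgeR ran from 0.193 to 0.296. With DESeq2 on all libraries of this comparison the adjusted p was 0.144. KO and PT2385 differed by 0.14 (95% interval -0.04 to 0.31, adjusted p = 0.288 in edgeR). PTGES2 and PTGES thus had fold changes of opposite sign in both comparisons with WT.

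PTGES3 (ENSG00000110958, chromosome 12, 56663341 to 56688408) encodes the cytosolic PGE2 synthase, which is the same protein as p23, a co-chaperone of HSP90. It had 5334, 5457 and 5308 counts in WT, 5660, 6010 and 6346 with PT2385 and 5081, 5759 and 5853 in KO. In CPM the KO libraries lay under all others, at 398 ± 5.07 against 447 ± 2.72 in WT and 450.4 ± 6.68 with PT2385 (SD, n = 3). PTGES3 fell by 0.15 on the log2 scale in KO against WT (SE 0.0524, adjusted p = 0.0467 in edgeR). This call was lost in 5 of 6 fits that left out a library and with DESeq2 (adjusted p = 0.0689), and over all alternatives the adjusted p ran from 0.0240 to 0.144. KO and PT2385 differed by -0.18 (SE 0.0578, adjusted p = 0.0552 in edgeR), which was called in 3 of 15 alternatives. Upon PT2385 treatment the log2 fold change was 0.01 (95% interval -0.10 to 0.12, adjusted p = 0.964 in edgeR). Its WT libraries were the most alike of any member, with a coefficient of variation of 0.609%.

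AKR1B1 (ENSG00000085662, chromosome 7, 134442356 to 134459284) encodes aldose reductase, which reduces glucose to sorbitol and also has prostaglandin F synthase activity. It was the most abundant member, with 17316, 18133 and 18044 counts in WT, 17412, 21803 and 22065 with PT2385 and 37656, 41713 and 43579 in KO. Every KO library was higher than every WT and PT2385 library, and the WT and PT2385 libraries overlapped. The means were 1486 ± 29.5, 1528 ± 113 and 2935 ± 55.5 CPM (SD, n = 3), or 0.148%, 0.154% and 0.292% of all counts. AKR1B1 was up-regulated 1.99-fold in KO against WT (log2 fold change 0.995, SE 0.0502, adjusted p = 1.11e-07 in edgeR). Against PT2385-treated cells the KO was 1.92-fold higher (log2 fold change 0.94, SE 0.0651, adjusted p = 5.35e-06 in edgeR).

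Upon PT2385 treatment AKR1B1 had a log2 fold change of 0.04, with a 95% interval of -0.09 to 0.16 and an adjusted p of 0.784 in edgeR. That interval does not include the size of the difference in KO. The pseudogene AKR1B1P1 had 15 to 104 counts per library, a small number beside those of AKR1B1.

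**Figure D2:**
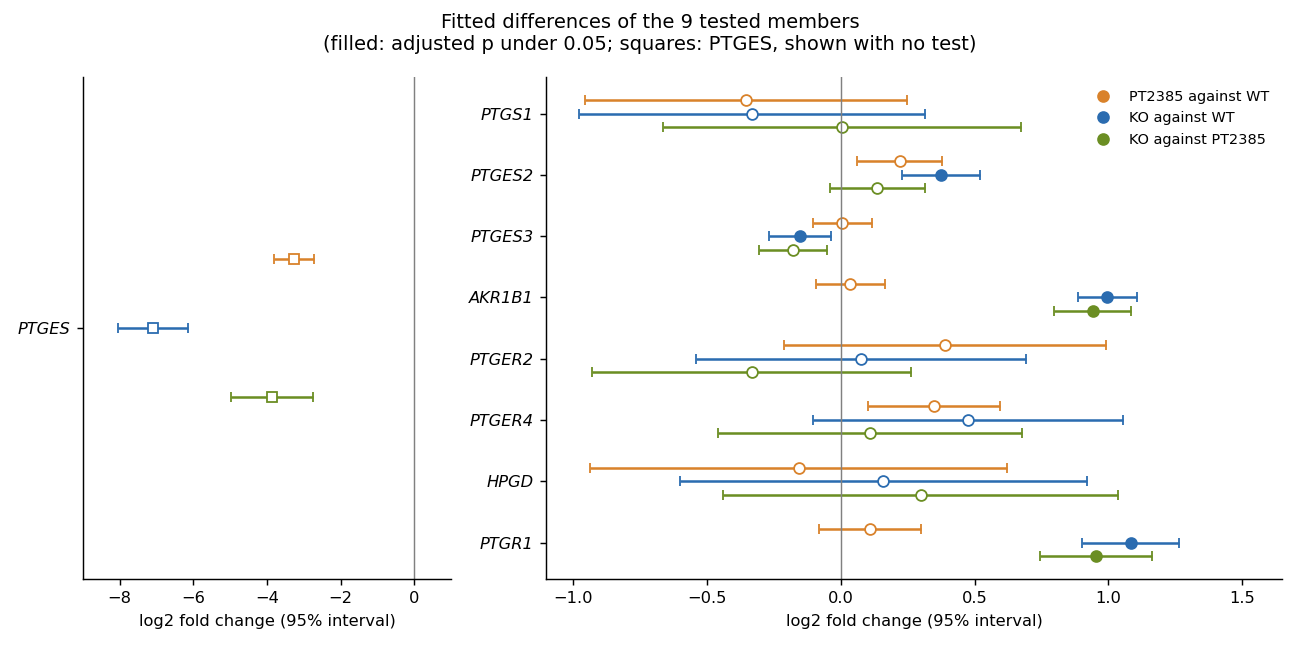
Fitted log2 fold changes (horizontal axes) with 95% intervals for the 9 tested members in PT2385 against WT (orange), KO against WT (blue) and KO against PT2385 (green). PTGES is drawn on its own axis because its values reach -7.09, a fitted value against libraries with 0 to 3 counts, and is shown as open squares with no test. The intervals of PTGES are drawn as a description and are not read as a test. Filled points have an adjusted p under 0.05. AKR1B1 and PTGR1 lie near 1 in both comparisons of KO and near 0 for PT2385 against WT.

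PTGER2 and PTGER4 encode EP2 and EP4, the receptors that pass PGE2 on to adenylyl cyclase through the stimulatory G protein. PTGER2 (ENSG00000125384, chromosome 14, 52314305 to 52328598) had 17, 20 and 27 counts in WT, 25, 27 and 42 with PT2385 and 19, 26 and 33 in KO. The groups overlapped in CPM. Its log2 fold change was 0.39 with PT2385 (95% interval -0.21 to 0.99, adjusted p = 0.464 in edgeR) and 0.08 in KO (-0.54 to 0.69, adjusted p = 0.872 in edgeR).

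PTGER4 (ENSG00000171522, chromosome 5, 40679915 to 40693735) was the more abundant receptor, with 131, 161 and 148 counts in WT and 191, 220 and 213 with PT2385. The PT2385 libraries did not overlap those of WT, at 15.6 ± 0.794 against 12.2 ± 1.15 CPM (SD, n = 3). The log2 fold change was 0.35 (SE 0.114, adjusted p = 0.0936 in edgeR). As given above it was called with the replicate block, which was 1 of 9 alternatives that kept every library. Over these the adjusted p in edgeR or DESeq2 ran from 0.0336 to 0.481. In the 6 fits that left out a library it ran from 0.0848 to 0.296 in edgeR.

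In KO the counts of PTGER4 were 218, 136 and 352. Their coefficient of variation was 43.9%. In CPM replicate 2, at 9.44, lay under every WT library, and replicate 3, at 24.2, lay over every other library of the series. The log2 fold change against WT was 0.48 (95% interval -0.10 to 1.055, adjusted p = 0.205 in edgeR). Without KO replicate 2 it was 0.77 (adjusted p = 0.00450 in edgeR), and without KO replicate 3 it was 0.11 (adjusted p = 0.713 in edgeR). The difference of KO from PT2385 turned from 0.11 to -0.26 without KO replicate 3. The level of PTGER4 in KO thus depended on which library was counted.

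HPGD and PTGR1 inactivate PGE2 in sequence: the dehydrogenase HPGD oxidises the hydroxyl group that the receptors need, and the reductase PTGR1 then reduces the resulting keto form. PTGR1 is also known for the inactivation of leukotriene B4. HPGD (ENSG00000164120, chromosome 4, 174490175 to 174523154) had 10, 8 and 13 counts in WT, 8, 11 and 12 with PT2385 and 11, 17 and 12 in KO, and the groups overlapped. Its log2 fold change was -0.16 with PT2385 (95% interval -0.94 to 0.62, adjusted p = 0.853 in edgeR) and 0.16 in KO (-0.60 to 0.92, adjusted p = 0.771 in edgeR). These intervals are wide and include 0, so the direction of a change in HPGD is not settled.

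PTGR1 (ENSG00000106853, chromosome 9, 111549722 to 111599893) had 359, 375 and 351 counts in WT, 422, 459 and 422 with PT2385 and 825, 986 and 839 in KO. Every KO library was higher than all 6 others, while WT and PT2385 overlapped in CPM. The means were 30.1 ± 0.762, 32.7 ± 2.72 and 63.3 ± 5.37 CPM (SD, n = 3). PTGR1 was up-regulated 2.12-fold in KO against WT (log2 fold change 1.08, SE 0.0824, adjusted p = 3.07e-06 in edgeR) and 1.94-fold against PT2385-treated cells (log2 fold change 0.95, SE 0.0944, adjusted p = 6.38e-05 in edgeR). With PT2385 the log2 fold change was 0.11 (95% interval -0.08 to 0.30, adjusted p = 0.519 in edgeR). The exons of PTGR1 overlap those of ZNF483 on the opposite strand by 78 bases, and whether counting used strand is not given in the sources used here. ZNF483 had 193 to 264 counts per library.

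Levels of different members can be set side by side only per length, here as CPM per kilobase of the union of annotated exons. In WT the order from high to low was AKR1B1 at 407, PTGES3 at 132, PTGES2 and PTGES both at 11.1, PTGR1 at 7.997, PTGER4 at 3.45, PTGER2 at 0.722, PTGS1 at 0.341, HPGD at 0.156 and PTGS2 at 0.0253. PTGES ranged from 7.88 to 14.8 and overlapped both PTGES2 and PTGR1, whereas the other neighbours in this order were separate. The cells thus held far more transcript for aldose reductase and p23 than for either cyclooxygenase.

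With PT2385 PTGES dropped from the fourth to the sixth place, at 1.17, and overlapped PTGER2 at 0.944. In KO it lay at 0.0731, next to PTGS2 at 0. PTGR1 at 16.8 stood over PTGES2 at 14.3 in KO, the reverse of their order in WT. With the longest annotated transcript as length, PTGES2 in WT was at 19.5, PTGR1 at 13.1 and PTGES at 11.3 CPM per kilobase, so PTGES moved to the fifth place, and HPGD at 0.295 overlapped PTGS1 at 0.393. In KO PTGR1 and PTGES2 then overlapped.

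**Figure D3:**
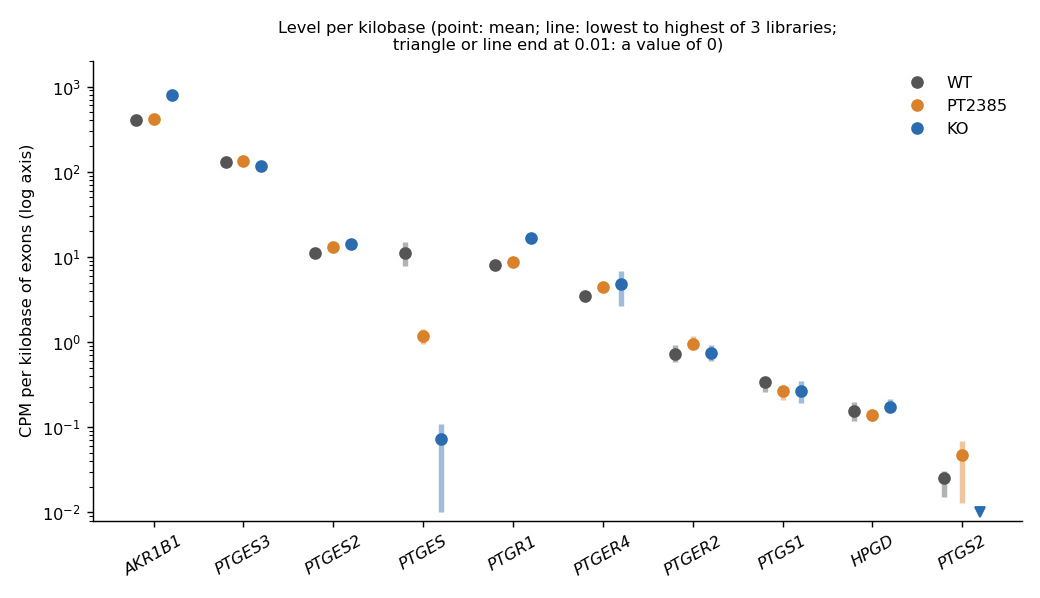
Level of each member in CPM per kilobase of exons (vertical log axis), with a point for the mean of 3 libraries and a line from the lowest to the highest for WT (grey), PT2385 (orange) and KO (blue). Members run from AKR1B1 at 407 to PTGS2 at 0.0253 in WT, and PTGES is the member whose points lie farthest apart. A triangle or a line end at 0.01 stands for 0.

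Around the 10 members, 62 other genes of the pathway were followed in 6 lists. Upon PT2385 treatment 31 of them could be tested and 1 was called, MGLL, which fell. The background there was 7.7%. In the comparisons with KO 4 more genes passed the filter, AKR1C3, FAAH, LTC4S and PTGER1, and they are left out of these counts because their WT and PT2385 libraries were near or under the filter's minimum. Of the remaining 31 genes 13 were called in KO against WT, 8 higher and 5 lower, beside a background of 30.1% (14.7% higher and 15.4% lower). In KO against PT2385 it was 7 of 31, 5 higher and 2 lower, beside a background of 18.8%. The median log2 fold change of the 31 was -0.00, 0.09 and -0.03 in the 3 comparisons.

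MGLL, monoacylglycerol lipase, which can feed arachidonic acid to the cyclooxygenases, had 3523, 3648 and 3989 counts in WT, 2034, 2341 and 2915 with PT2385 and 2923, 3597 and 4041 in KO. It fell by 0.78 on the log2 scale with PT2385 (SE 0.0815, adjusted p = 6.67e-05 in edgeR) and by 0.29 in KO against WT (adjusted p = 0.0183 in edgeR). KO was higher than PT2385-treated cells by 0.47 (adjusted p = 0.00654 in edgeR). Among 12 genes of arachidonate release, 6 could be tested in all comparisons. The 2 that were called in KO against WT, MGLL and PLA2G15, were lower, beside 15.4% of all tested genes called lower. PLA2G4A, the cytosolic phospholipase best known for this step, had at most 1 count in any library.

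Of 7 other prostanoid synthases 3 were tested in all comparisons. CBR1 and PRXL2B were called higher in KO than in WT, beside 14.7% of all tested genes called higher. AKR1C3, which also makes prostaglandin F, had 8, 7 and 6 counts in WT, 9, 14 and 13 with PT2385 and 83, 136 and 93 in KO. All KO libraries held more counts than all others. It passed the filter only through KO, where it is high, so its fitted log2 fold change of 3.66 against WT is given with no test. The family has close copies, so its split of reads among them is uncertain.

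Among 12 genes of the lipoxygenases, leukotriene enzymes and the MAPEG family to which PTGES belongs, 5 were tested in all comparisons. In KO against WT 4 of the 5 were called, all higher (median log2 fold change 0.72), beside 14.7% of all tested genes called higher. MGST1, a microsomal glutathione transferase, had 387, 439 and 426 counts in WT, 498, 512 and 557 with PT2385 and 1346, 1734 and 1577 in KO. It was up-regulated in KO by 1.69 on the log2 scale against WT (SE 0.0786, adjusted p = 6.59e-08 in edgeR) and by 1.501 against PT2385 (adjusted p = 1.07e-06 in edgeR). LTC4S, leukotriene C4 synthase, had 5, 3 and 4 counts in WT, 4, 12 and 5 with PT2385 and 25, 21 and 20 in KO, and also passed the filter only through KO, so no test is given for it. The other 3 higher genes were ALOX5AP (adjusted p = 0.0190), LTA4H (adjusted p = 0.0389) and MGST2 (adjusted p = 0.0417, each in edgeR). The KO and WT libraries of LTA4H overlapped in CPM. In KO against PT2385 2 of the 5 were called, both higher, beside 8.47% of all tested genes called higher. LTA4H and MGST2 were not called there (adjusted p = 0.291 and 0.118 in edgeR). Of the MAPEG genes tested beside PTGES, ALOX5AP, MGST1 and MGST2 were higher in KO than in WT, and MGST3 had a log2 fold change of -0.24 (adjusted p = 0.120 in edgeR), with every KO library lower than every WT library in CPM.

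Of 7 other prostanoid receptors only PTGFR was tested in all comparisons, with a log2 fold change of 0.43 in KO against WT (unadjusted p = 0.114, adjusted p = 0.230 in edgeR). PTGER1 had 7, 9 and 2 counts in WT and 21, 12 and 14 in KO, through which alone it passed the filter. Of 3 tested genes for transport and further breakdown 1 was called in KO against WT, beside 30.1% of all tested genes. It was ABCC4, a PGE2 exporter, with a log2 fold change of -0.24 (adjusted p = 0.0158 in edgeR). In the cAMP arm downstream of EP2 and EP4, 13 of 20 genes were tested. In KO against WT 4 of the 13 were called, which is near the 30.1% of all tested genes. PRKAR1B and PRKAR2A, regulatory subunits of protein kinase A, were higher in KO than in WT, and the adenylyl cyclase ADCY3 and GNAS, which encodes the stimulatory G protein, were lower. The fold change of ADCY3 was -0.63 on the log2 scale (SE 0.0677, adjusted p = 4.21e-05 in edgeR).

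**Figure D4:**
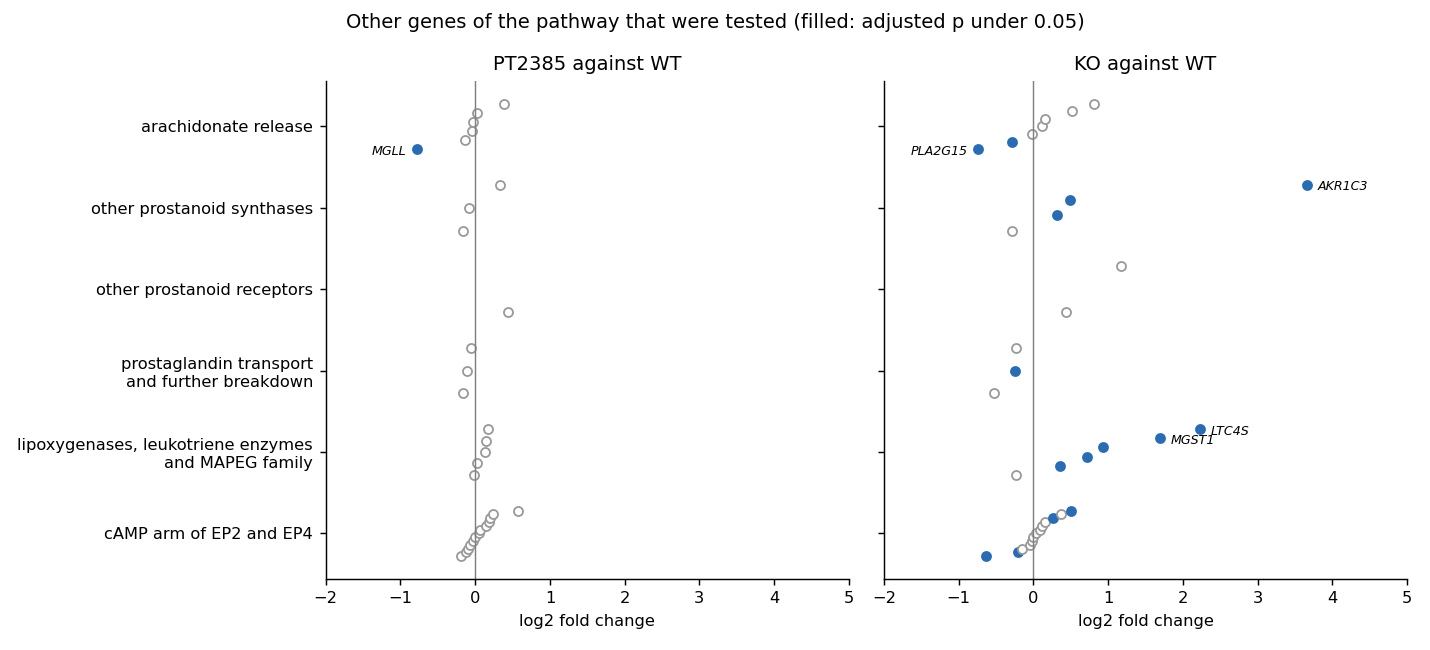
Log2 fold changes (horizontal axes) of the tested genes in the 6 other lists of the pathway, for PT2385 against WT on the left and KO against WT on the right, with filled points for an adjusted p under 0.05. MGLL is the filled point on the left at -0.78. On the right, among genes tested in all comparisons, the filled point farthest from 0 is MGST1 at 1.69. AKR1C3 at 3.66 and LTC4S at 2.23 are drawn filled too. They passed the filter only through KO, so their fill is not read as a test result.

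The genes whose pattern was most like that of PTGES were looked for over the 9 libraries by Pearson's r of log2 CPM, among 10140 genes with a mean of at least 100 counts. The nearest were TICRR (r = 0.991), ENSG00000279476 (0.990), OPN3 (0.990), INO80E (0.990) and GJC1 (0.988). The 9 points fall into 3 groups and share their libraries, so these values are a description. OPN3, an opsin, stood at 25.8 ± 1.28 CPM in WT, 14.0 ± 0.591 with PT2385 and 7.34 ± 0.982 in KO (SD, n = 3). TICRR, which acts in the start of DNA replication, stood at 77.1 ± 1.76, 62.2 ± 0.886 and 46.8 ± 1.73 CPM. All 5 shared the order of WT over PT2385 over KO, which follows from their choice by likeness to PTGES. Their differences were smaller than those of PTGES, whose log2 CPM in KO depends on the prior count of 2.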

How the data were processed

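According to the study's methods and the submitters' processing notes, FastQC was used for read quality, cutadapt for trimming, STAR for alignment to GRCh38 (hg38) and featureCounts for counting per gene. The authors deposited raw counts per gene for 9 libraries, with no normalization, and 0 columns were left unmapped. Tool versions, annotation release and strandedness are not given in the sources used here. Symbols and positions came from GENCODE for 58207 of 58735 genes.

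A separate model of 3 against 3 libraries was fitted for each comparison with edgeR 4.0.16 in R 4.3.3: filterByExpr (minimum of 10 counts), TMM scaling, the quasi-likelihood F test and p-values adjusted by Benjamini-Hochberg over every gene tested, at 0.05. The edgeR fit was tested on simulated counts, with known changes placed in better-counted genes. Changes in genes with low counts, small changes, the replicate block and DESeq2 were not covered by it. CPM values (counts per library scaled to a common size with the TMM factors) were taken over all 9 libraries. An exact permutation test of 3 against 3 cannot go below p = 0.1, so none was used. Errors between replicates exceed counting error, and totals of 11881000 to 14730081 set the precision. A floor of 3 counts per library was used.

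Members and gene lists were chosen with earlier results of these data known. Named were all members, EPAS1, genes that share exons with a member or are its pseudogenes, other pathway genes called with a log2 fold change of at least 1 in size, and the 5 genes most like the member with the largest fold change. Other pathway genes and the markers were named after their values were seen. PTGES reached the minimum of 100 counts set for that member over the 6 libraries of either comparison, and the other genes over all 9. Same-numbered PT2385 and WT libraries deviated together in all 3 pairs (correlation 0.137 to 0.453 over 10140 genes), which is where the pairing comes from. For same-numbered KO libraries the correlations ran from 0.0560 to 0.481 with WT and from 0.0915 to 0.415 with PT2385. Libraries of different number reached 0.293 and 0.185 there, against 0.0918 between PT2385 and WT. The KO numbers were therefore not taken as pairs, though a shared deviation in KO is not excluded. Alternatives were DESeq2 1.42.0, RLE, upper-quartile and library-size scaling, other filters, the replicate block, all 9 libraries in a single model, a threshold of 0.01 and leaving out each library.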

Additional observations from a re-analysis of the deposited data

How the results depend on the processing

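The direction held under the alternatives run for the members called in KO against WT and in KO against PT2385 and for PTGES with PT2385. With at least 10 counts required in every library, PTGES was not tested in the comparisons with KO, and 4 and 2 members were called. PTGES is left out of the members named below. Leaving out 1 library moved the genes called with PT2385 to between 574 and 1451 (574 without PT2385 replicate 2, 654, 581 and 728 without WT replicates 1, 2 and 3). The only member then called was PTGES2, without PT2385 replicate 1. For KO against WT it gave 3344 to 5094 genes. PTGES2, AKR1B1 and PTGR1 were called each time, while the calls of PTGES3 and PTGER4 depended on the library left out. For KO against PT2385 it gave 1836 to 3190 genes, with 1836 without PT2385 replicate 2, and AKR1B1 and PTGR1 were called in each. With a threshold of 0.01 the calls were 516, 2788 and 1657. With the replicate block 2305 genes were called for PT2385 against WT, PTGES2 and PTGER4 among them. For KO, whose numbers were not taken as pairs, the block gave 5501 genes against WT and 3783 against PT2385. It changed no call of a member but that of PTGES3 in the latter. PTGES3 was called there with the block (adjusted p = 0.0294), with library-size scaling (adjusted p = 0.0355) and in the single model of all 9 libraries (adjusted p = 0.0228, each in edgeR).

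The call of PTGES3 in KO against WT was lost with DESeq2, with RLE scaling (adjusted p = 0.05003), with no filter (adjusted p = 0.0966), at 0.01 and in 5 of 6 fits that left out a library. PTGER4 in KO against WT was called with no filter on low counts (adjusted p = 0.00503). Among members that were not called the sign turned in 12 cases, 10 of them when 1 library was left out. With PT2385 the log2 fold change then ran from -0.31 to 0.043 for HPGD, from -0.0078 to 0.018 for PTGES3 and from -0.017 to 0.089 for AKR1B1, turning without WT replicate 3, PT2385 replicate 1 and PT2385 replicate 2. In KO against WT it ran from -0.097 to 0.28 for PTGER2 (turning without WT replicate 1 or KO replicate 3) and from -0.027 to 0.36 for HPGD (without WT replicate 2 or KO replicate 2). In KO against PT2385 it ran from -0.23 to 0.20 for PTGS1 (without KO replicate 3 or PT2385 replicate 1) and from -0.26 to 0.40 for PTGER4 (without KO replicate 3). PTGS1 also turned there with library-size scaling (-0.0061) and with the block (-0.00038). The cause was not tested. PTGS1, PTGS2, PTGER2 and HPGD were limited by low counts.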
